A study of Mus musculus with 4 samples.

Results

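The genes described here encode lysosomal hydrolases, lysosomal membrane proteins and the MiT/TFE transcription factors that regulate them. They were chosen by name, as 44 symbols in 5 groups: 13 cathepsins and related peptidases, 17 glycosidases and sulfatases, 5 lipid hydrolases and their activators, 6 membrane proteins and 3 MiT/TFE factors. Of these, 43 had a probe set named here, out of 18193 named genes on the array, and 42 lay above the filter on signal, out of 11057 genes tested. Cd63, a tetraspanin of the lysosomal membrane, had no probe set named here and is not analysed.

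Total RNA of SMRTmRID 3T3-MEFs (2 arrays) and wild-type 3T3-MEFs (2 arrays) was hybridised to Affymetrix arrays of 1 colour. The 3T3-MEFs were lines derived from mouse embryonic fibroblasts, kept undifferentiated and harvested at confluence. SMRT is a corepressor that unliganded nuclear receptors recruit to silence their targets, and SMRTmRID carries a mutation of its receptor interaction domain. The labels call the 2 arrays of a genotype technical replicates and do not say how many lines, embryos or cultures stand behind them, so every p-value below measures only the spread between such arrays, and differences between lines and differences due to the mutation cannot be told apart.

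Values are MAS5 signals, a summary of the brightness of the probes of a probe set. A gene is represented by its brightest probe set, and differences are SMRTmRID minus wild-type after taking log2(signal + 16), which understates changes of dim genes. Genes were tested with limma, and "rose" and "fell" are used for a Benjamini-Hochberg adjusted p under 0.05 over all 11057 genes. Across these genes, Pearson's r was 0.991 between the arrays of each genotype and 0.860 to 0.861 between genotypes. RNA integrity, read from the 3′ to 5′ ratio of the beta-actin control probe sets, was alike on the 4 arrays (1.19 to 1.20). As these are bulk samples, fewer cells of a type and less RNA per cell cannot be told apart. The fibroblast markers Col1a1, Col1a2, Col3a1, Vim, Fn1, Sparc, S100a4 and P4hb had signals between 7369 and 15718 on every array.

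Lysosomes break down proteins, glycans and lipids delivered by endocytosis and autophagy. Their hydrolases work at acid pH, and most carry a mannose 6-phosphate tag that sends them from the Golgi apparatus to the lysosome. TFEB, TFE3 and MITF are related helix-loop-helix factors that bind E-box sequences in the promoters of many lysosomal genes and can raise their transcription together. In fibroblasts, lysosomal proteases also take part in the turnover of collagen taken up from the matrix.

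Lysosomal genes did not move as a block in SMRTmRID cells. The test was passed upward by 17 of 42 genes, downward by 14 and not at all by 11. The 31 called genes were 73.8% of those tested, beside 65.2% of all genes tested. The shares that rose and fell were 40.5% and 33.3%, beside 30.3% and 35.0% of all genes. The median log2 difference was 0.03, beside -0.05 for all genes tested. Most differences were small: 4 lysosomal genes rose and 2 fell by at least 1 on the log2 scale, or 9.52% and 4.76%, beside 9.69% and 6.79% of all genes. The 2 falls were Ctsc and Galc, and a different probe set of Galc passed in the opposite direction. For 37 of the 42 genes (88.1%) no SMRTmRID array lay within the range of the wild-type arrays or the reverse, beside 81.5% of all genes. The number that fell depended on the choice of probe set and was 9 of 42 when the probe sets of a gene were averaged. Centring the arrays on their medians moved the median of all genes by -0.16 and the calls over all genes to 2472 higher and 4733 lower, beside 3346 and 3867 without it; for the lysosomal genes it gave 14 higher and 16 lower.

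**Figure D1:**
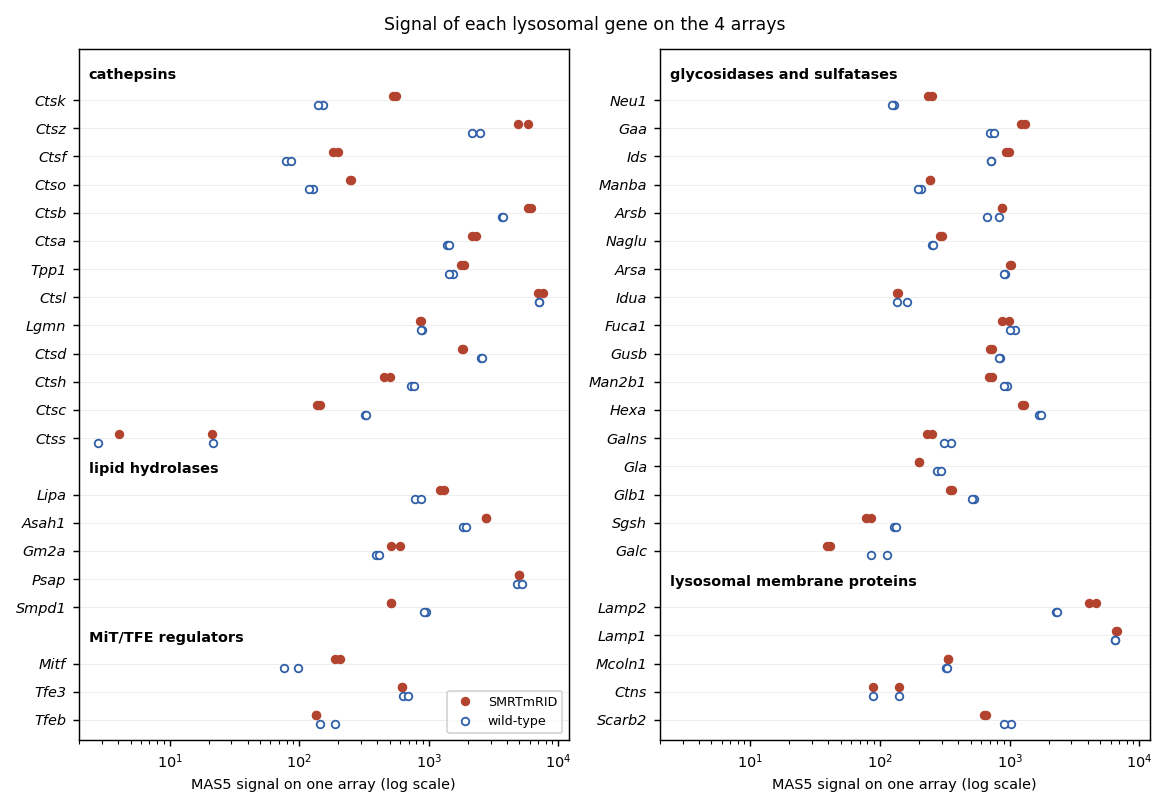
MAS5 signal (log axis) of the 43 lysosomal genes with a probe set, by group. Filled points are the 2 SMRTmRID arrays and open points the 2 wild-type arrays. Ctsk sits near 542 in SMRTmRID and near 146 in wild-type, whereas the points of Ctss, Ctns and Psap overlap.

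Cathepsins are proteases of the lysosome, and their group, which includes the related peptidases Tpp1 and Lgmn, was more often higher than lower in SMRTmRID. Among 12 tested, 7 rose, 3 fell and 2 were not called. Tpp1 is among the 7, and Lgmn among the 2. The shares that rose and fell were 58.3% and 25%, beside 30.3% and 35.0% of all genes tested. The 83.3% called compare with 65.2% of all genes tested. Whether the cathepsin group differs from all genes was not tested. The log2 differences ran from -1.11 to 1.78 around a median of 0.48. The 3 with a rise of at least 1 on the log2 scale, Ctsk, Ctsz and Ctsf, are cysteine proteases of the papain family. Ctsk encodes cathepsin K, a strong collagenase known from osteoclasts and also made by fibroblasts. Its signals were 526 and 558 on the SMRTmRID arrays, against 152 and 141 on the wild-type arrays, differing by 1.78 ± 0.09 on the log2 scale (SE, limma adjusted p = 2.33e-07). This was the greatest difference in either direction among the 42 genes, and the groups were far apart.

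Ctsz, which encodes the carboxypeptidase cathepsin Z, had signals of 5805 and 4917 in SMRTmRID, against 2151 and 2495 in wild-type. The genotypes differed by 1.20 ± 0.09 on the log2 scale (SE, limma adjusted p = 1.85e-06), and the arrays within each genotype also differed visibly. Ctsf, for cathepsin F, had signals of 183 and 199 in SMRTmRID and 78.9 and 85.9 in wild-type, differing by 1.07 ± 0.14 on the log2 scale (SE, limma adjusted p = 0.000106). Ctso, a less studied member of the same family, rose by 0.94 on the log2 scale. Ctsb, which encodes the abundant endo- and exopeptidase cathepsin B, rose by 0.69, with signals of 6155 and 5843 in SMRTmRID, against 3667 and 3769 in wild-type. Among the serine peptidases, Ctsa rose by 0.67 and Tpp1, the tripeptidyl peptidase lost in a neuronal ceroid lipofuscinosis, by 0.29. Tpp1 no longer passed with median-centred arrays (0.13, adjusted p = 0.263), and its other probe set passed at 0.82.

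Ctsc was the cathepsin with the greatest fall. It encodes dipeptidyl peptidase I, which activates granule serine proteases in immune cells. Its signals were 138 and 144 in SMRTmRID, against 319.6 and 325 in wild-type, differing by -1.11 ± 0.10 on the log2 scale (SE, limma adjusted p = 1.00e-05). The pairs of arrays were tight and well separated. With the mean of its probe sets, of which the others lay below the filter, Ctsc was at -0.23 and no longer passed (adjusted p = 0.256). Ctsh, an aminopeptidase gene, fell by 0.63 on the log2 scale, with signals of 453 and 500.3 in SMRTmRID and 729.7 and 764 in wild-type. Ctsd, which encodes the aspartic protease cathepsin D, fell by 0.48, with signals of 1840.1 and 1813 in SMRTmRID, against 2539 and 2573 in wild-type.

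The remaining cathepsin group genes were not called or were too dim to test. Ctsl, for cathepsin L, had signals of 7635 and 6922 in SMRTmRID, against 7137 and 7103 in wild-type (log2 difference 0.03, adjusted p = 0.648 by limma). It passed upward with quantile-normalized arrays, at 0.12, and with its probe sets averaged, at 0.26. The other probe set in that mean was below the filter, at 33.3 and 37.8 in SMRTmRID and 27.7 and 15.0 in wild-type. Lgmn, for the asparaginyl endopeptidase legumain that processes several cathepsins, had signals of 871 and 859 in SMRTmRID, against 884 and 868 in wild-type, and did not pass (adjusted p = 0.795). Ctss, for cathepsin S, an enzyme of antigen-presenting cells, had signals of 4.09 and 21.1 in SMRTmRID, against 21.6 and 2.80 in wild-type, and was below the filter. Its spread within each genotype was greater than any difference between them.

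Since several of these proteases are typical of macrophages and osteoclasts, markers of those cells were examined beside them. The 13 macrophage markers summed to signals of 649 and 603 in SMRTmRID, against 599 and 405 in wild-type, and 9 of them were below the filter, at 44.3 or less. Ptprc, the pan-leukocyte gene, had signals of 11.9 and 11.2 in SMRTmRID, against 7.01 and 1.01 in wild-type. Lyz2, the lysozyme gene of myeloid cells, rose at a low level, with signals of 105 and 95.3 in SMRTmRID, against 27.4 and 15.6 in wild-type (log2 difference 1.65). Cd14, a monocyte coreceptor gene, had signals of 209 and 198 in SMRTmRID, against 157 and 141 in wild-type (log2 difference 0.41). Lyz2 and Cd14 were the 2 called among the 4 macrophage markers tested, or 50%, beside 65.2% of all genes tested. Csf1r and Adgre1 overlapped between genotypes and were not called. Tyrobp, a myeloid adaptor gene below the filter, had signals of 2.51 and 2.13 in SMRTmRID, against 18.4 and 10.6 in wild-type. The 7 osteoclast markers, Calcr, Oscar, Ocstamp, Dcstamp, Acp5, Mmp9 and Atp6v0d2, were all below the filter and summed to 106 and 84.3 in SMRTmRID and 70.0 and 45.6 in wild-type. What part such cells have in the cathepsin values was not tested.

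**Figure D2:**
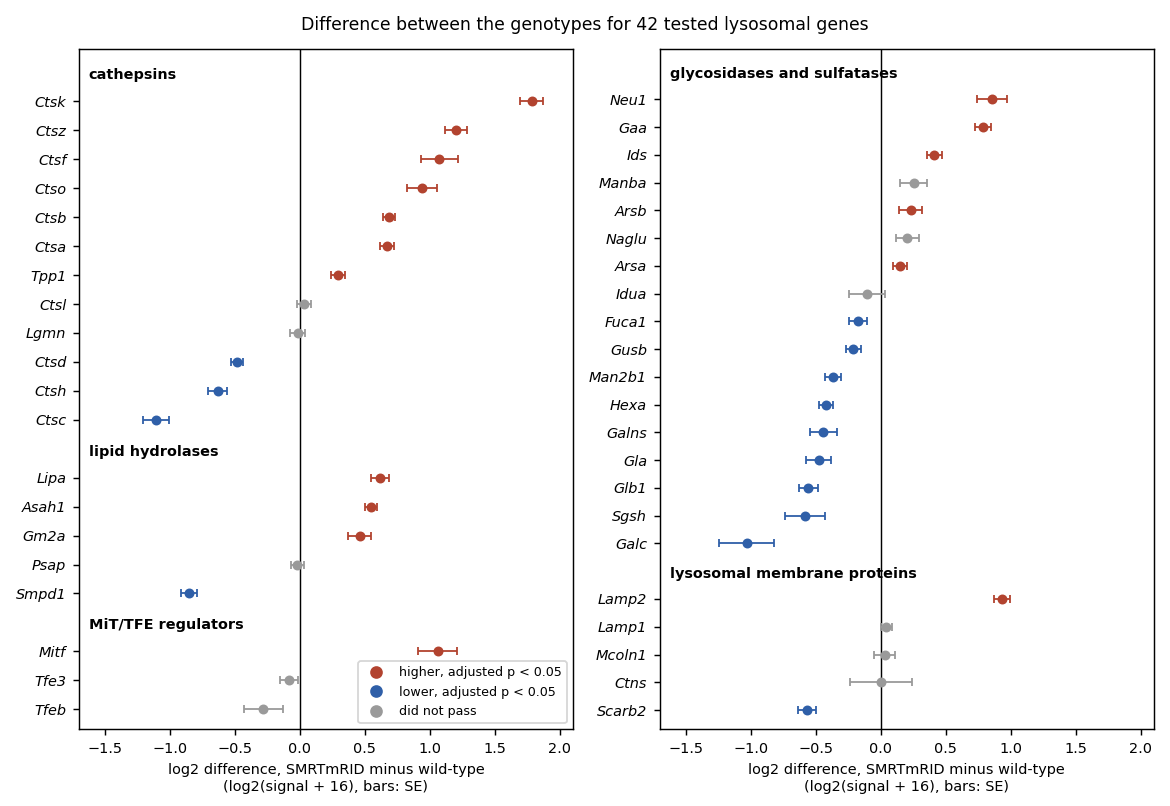
SMRTmRID minus wild-type difference in log2(signal + 16) for the 42 tested lysosomal genes, with limma's standard error as bars; colour gives the call. Cathepsins span -1.11 to 1.78, and 9 of the 17 glycosidases and sulfatases lie below 0 and passed the test.

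Glycosidases and sulfatases leaned the other way. Among the 17 genes, 5 rose, 9 fell and 3 were not called, and log2 differences ran from -1.03 to 0.86 around a median of -0.17. The shares that rose and fell were 29.4% and 52.9%, beside 30.3% and 35.0% of all genes tested. The 82.4% called compare with 65.2% of all genes tested. Whether this group differed from the cathepsins or from all genes was not tested. Both counts were soft. The number that fell was 5 when the probe sets of a gene were averaged, and 5 of 14 with the second brightest probe set. The 9 that fell include Galc by its brightest probe set. The number that rose was 3 with median-centred arrays, and 3 of 14 with the second brightest probe set. It was also lower with any single array left out.

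Among the exoglycosidases, Neu1 and Gaa rose. Neu1, the lysosomal sialidase gene, had signals of 252 and 233 in SMRTmRID, against 129 and 125 in wild-type, a log2 difference of 0.86 ± 0.12 (SE). Averaged with its dim probe sets it was at 0.30 and did not pass (adjusted p = 0.175). Gaa, the acid alpha-glucosidase that degrades lysosomal glycogen and is deficient in Pompe disease, had signals of 1227 and 1305 in SMRTmRID, against 705 and 752 in wild-type, a log2 difference of 0.78 ± 0.06 (SE). NEU1 works in a complex with cathepsin A and beta-galactosidase. The 3 genes of that complex were split, since Neu1 and Ctsa rose while Glb1, for beta-galactosidase, fell by 0.56 on the log2 scale, with signals of 359.5 and 344 in SMRTmRID and 535 and 515 in wild-type.

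Several glycosidases of glycoprotein, ganglioside and glycosaminoglycan breakdown were modestly lower. Hexa, the alpha subunit of beta-hexosaminidase, fell by 0.42 on the log2 scale, with signals of 1296 and 1235 in SMRTmRID, against 1671 and 1735 in wild-type. Man2b1, the lysosomal alpha-mannosidase gene, had a log2 difference of -0.37, Gusb, for beta-glucuronidase, of -0.21 and Fuca1, for alpha-fucosidase, of -0.17. Fuca1 was close to the threshold (adjusted p = 0.0481 by limma) and lost its call when SMRTmRID replicate 1 (adjusted p = 0.292) or wild-type replicate 1 (adjusted p = 0.224) was left out; over its alternatives the adjusted p ran from 0.00292 to 0.817. Gusb lost its call when SMRTmRID replicate 1 was left out (adjusted p = 0.0578). Manba, for beta-mannosidase, had a log2 difference of 0.25 that did not pass (adjusted p = 0.0515 by limma), with signals of 244 and 243 in SMRTmRID, against 208 and 196 in wild-type. It passed upward with the stricter filter (adjusted p = 0.0465), with probe sets averaged (0.0331) and without a variance trend (0.0369), and over all its alternatives the adjusted p reached 0.569.

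Galc, which encodes galactosylceramidase, the enzyme of myelin lipid breakdown lost in Krabbe disease, had the greatest fall of this group. Its brightest probe set had signals of 39.2 and 40.8 in SMRTmRID, against 84.9 and 114 in wild-type, differing by -1.03 ± 0.21 on the log2 scale (SE, limma adjusted p = 0.00196). A different probe set of the gene went the opposite way, with signals of 78.1 and 65.3 in SMRTmRID, against 22.0 and 33.3 in wild-type, a log2 difference of 1.02. Each probe set separated the genotypes without overlap, so the array gives no direction for Galc as a gene. Gla, the alpha-galactosidase A of Fabry disease, fell by 0.48 on its brightest probe set, with signals of 199 and 201 in SMRTmRID and 275 and 295 in wild-type, while its next probe set had a log2 difference of 0.19 that did not pass.

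The 5 sulfatases, which remove sulfate groups from glycosaminoglycans and sulfatide, went both ways by small amounts. Ids, the iduronate 2-sulfatase of heparan and dermatan sulfate breakdown, rose by 0.41 on the log2 scale, with signals of 943 and 981 in SMRTmRID, against 720.2 and 719 in wild-type. It was not called on its second brightest probe set (0.15, adjusted p = 0.549) or with probe sets averaged (-0.06, adjusted p = 0.729). Sgsh, the heparan N-sulfatase, fell by 0.58, with signals of 85.9 and 77.7 in SMRTmRID, against 127 and 133 in wild-type. Galns, which acts on keratan and chondroitin sulfate, fell by 0.44. Arsa, for the sulfatide-degrading arylsulfatase A, and Arsb, for arylsulfatase B, rose by 0.15 and 0.23 with adjusted p = 0.0356 and 0.0422 (limma). Arsa did not pass with any single array left out, with adjusted p between 0.0678 and 0.114. Arsb lost its call when SMRTmRID replicate 1 (adjusted p = 0.0977), SMRTmRID replicate 2 (0.0876) or wild-type replicate 1 (0.322) was left out. The enzymes of heparan sulfate breakdown on the list were mixed, with Ids higher on its brightest probe set, Sgsh and Gusb lower, and neither Idua (log2 difference -0.10, limma adjusted p = 0.539) nor Naglu (0.21, 0.0711) called.

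Among the 5 genes of lipid hydrolases and their activators, 3 rose, 1 fell and 1 was not called (median log2 difference 0.46). The shares that rose and fell were 60% and 20%, beside 30.3% and 35.0% of all genes tested. Whether so small a group differs from all genes was not tested. Lipa, the acid lipase that frees cholesterol and fatty acids from lipoprotein lipids, had signals of 1318 and 1227 in SMRTmRID, against 779 and 874 in wild-type, differing by 0.61 ± 0.07 on the log2 scale (SE, limma adjusted p = 3.71e-05). Asah1, the acid ceramidase gene, had signals of 2753 and 2758 in SMRTmRID, against 1837 and 1928 in wild-type, a log2 difference of 0.55 ± 0.05 (SE). Smpd1, the acid sphingomyelinase that makes the ceramide which acid ceramidase degrades, went the other way. Its signals were 513 and 509 in SMRTmRID, against 949.8 and 924 in wild-type, differing by -0.85 ± 0.06 on the log2 scale (SE, limma adjusted p = 1.53e-06).

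Gm2a, the activator that presents ganglioside GM2 to beta-hexosaminidase, rose by 0.46 on the log2 scale, whereas Hexa, which cleaves it, fell. Gm2a had signals of 512 and 602 in SMRTmRID, against 388 and 410.3 in wild-type. Psap, the precursor of the saposins that assist sphingolipid hydrolases, had signals of 4940.0 and 4954 in SMRTmRID, against 4819.7 and 5217 in wild-type, and did not pass (adjusted p = 0.752 by limma). Across the groups, 8 genes were counted for sphingolipid breakdown, namely Gla, Galc, Arsa, Hexa, Gm2a, Smpd1, Asah1 and Psap. They comprised 3 that rose, 4 that fell and 1 that did not pass, or 87.5% called, beside 65.2% of all genes tested. The 4 that fell include Galc by its brightest probe set, and by its other passing probe set the counts would be 4 and 3. This count is partial, as it leaves out Glb1, which fell, and Neu1, which rose.

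The 5 tested membrane protein genes comprised 1 that rose, 1 that fell and 3 that were not called. The 40% called compare with 65.2% of all genes tested. LAMP1 and LAMP2 are the heavily glycosylated proteins that line the lysosomal membrane, and whether their genes differed from each other in response was not tested. Lamp2 had signals of 4677 and 4099 in SMRTmRID, against 2278 and 2301 in wild-type, differing by 0.93 ± 0.06 on the log2 scale (SE, limma adjusted p = 1.17e-06). Lamp1 had signals of 6702 and 6619 in SMRTmRID, against 6443 and 6478 in wild-type, a log2 difference of 0.04 that did not pass (adjusted p = 0.396), though with quantile-normalized arrays it passed at 0.11. Scarb2 encodes LIMP-2, the transport receptor of beta-glucocerebrosidase. It fell by 0.56 on the log2 scale, with signals of 659 and 631 in SMRTmRID, against 1019 and 906 in wild-type.

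Mcoln1, the gene of the calcium channel mucolipin 1, had signals of 334 and 337 in SMRTmRID, against 325 and 331 in wild-type, and did not pass (adjusted p = 0.749 by limma). Its second probe set had signals of 341 and 374 in SMRTmRID, against 308 and 295 in wild-type, and passed at a log2 difference of 0.23 (adjusted p = 0.0433 over single probe sets). Ctns, the cystine exporter gene, had signals of 88.3 and 140.0 in SMRTmRID, against 139 and 88.7 in wild-type. Its arrays differed within each genotype and the means were equal (114 in both), so a change of this gene was not measurable here (SE 0.24).

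Of the 3 MiT/TFE regulators, Mitf rose and the others did not pass. Mitf had signals of 206 and 189.5 in SMRTmRID, against 97.2 and 76.4 in wild-type, differing by 1.06 ± 0.15 on the log2 scale (SE, limma adjusted p = 0.000188). The melanocyte genes Tyr, Tyrp1, Dct, Pmel and Mlana were below the filter on these arrays, at 35.0 or less. Mitf is also the master regulator of that lineage, and the 5 genes summed to 84.7 and 56.8 in SMRTmRID, against 58.7 and 50.6 in wild-type. The dimmer probe set of Mitf had a log2 difference of 0.43 that did not pass. Tfe3 had signals of 624 and 626 in SMRTmRID, against 635 and 693 in wild-type (log2 difference -0.09, adjusted p = 0.291 by limma), and passed downward with median-centred arrays at -0.25 (adjusted p = 0.0386). Tfeb had signals of 134 and 135 in SMRTmRID, against 190.1 and 145 in wild-type, a log2 difference of -0.28 that was not called (limma, adjusted p = 0.126). Leaving out wild-type replicate 2, it passed at -0.46 (adjusted p = 0.0315), without wild-type replicate 1 it was -0.10, and with quantile-normalized or median-centred arrays it passed at -0.41 and -0.44. Over its alternatives the adjusted p ran from 0.00771 to 0.624.

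Promoters were searched for the E-box that these factors bind, because it is the known target sequence of the MiT/TFE factors. The windows run from 250 bases before to 50 after an annotated start (RefSeq, GRCm38.p6), and 40 of the 44 symbols matched, with 49 windows; Asah1, Ctsb, Ctsh and Galns were not searched. The hexamer CACGTG, which reads the same on both strands, was present in 13 of 40 genes (32.5%), beside 8.09% of all 27025 genes with a window. The longer form TCACGTGA, which contains the hexamer and is also a palindrome, was present in 4 of 40 genes (10%), beside 1.12% of all genes. Counted by window, the hexamer was in 26.5% of the 49 windows, beside 7.15% of all 32851. The 4 windows with the longer form are shown because their genes hold the sequence in common and differed in direction. Capitals mark each copy of TCACGTGA and of CACGTG, and each window is written 5′ to 3′ along the gene.
Ctsa, chr2:164833523-164833822, plus strand: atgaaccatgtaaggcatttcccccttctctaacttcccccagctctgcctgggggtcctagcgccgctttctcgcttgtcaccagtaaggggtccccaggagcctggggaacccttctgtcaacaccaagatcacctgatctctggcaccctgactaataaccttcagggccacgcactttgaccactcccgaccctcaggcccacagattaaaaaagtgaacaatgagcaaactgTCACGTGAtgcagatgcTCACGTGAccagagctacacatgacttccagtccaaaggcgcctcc
Ctsd, chr7:142387778-142388077, minus strand: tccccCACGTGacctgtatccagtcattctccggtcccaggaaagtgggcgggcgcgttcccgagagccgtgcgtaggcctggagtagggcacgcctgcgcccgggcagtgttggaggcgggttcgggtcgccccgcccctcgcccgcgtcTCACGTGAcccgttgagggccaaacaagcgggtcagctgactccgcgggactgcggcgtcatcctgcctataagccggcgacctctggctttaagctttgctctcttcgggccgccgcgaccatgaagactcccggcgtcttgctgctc
Gla, chrX:134600956-134601255, minus strand: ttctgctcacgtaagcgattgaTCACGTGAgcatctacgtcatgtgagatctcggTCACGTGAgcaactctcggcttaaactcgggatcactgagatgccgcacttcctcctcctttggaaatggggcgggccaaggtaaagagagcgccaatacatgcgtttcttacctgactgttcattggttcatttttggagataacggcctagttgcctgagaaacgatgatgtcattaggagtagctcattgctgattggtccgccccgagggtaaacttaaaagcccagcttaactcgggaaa
Mcoln1, chr8:3500269-3500568, plus strand: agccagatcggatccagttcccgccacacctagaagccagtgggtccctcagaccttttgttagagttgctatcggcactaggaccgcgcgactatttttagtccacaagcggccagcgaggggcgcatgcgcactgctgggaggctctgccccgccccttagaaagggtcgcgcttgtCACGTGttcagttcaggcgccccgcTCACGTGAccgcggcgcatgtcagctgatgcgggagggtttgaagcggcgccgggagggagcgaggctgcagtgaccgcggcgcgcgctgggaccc

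The genes with the E-box had no common direction. Of the 4 shown above, Ctsa had a log2 difference of 0.67, Ctsd of -0.48, Gla of -0.48 and Mcoln1 of 0.03, the last not passing. In Ctsa the copies begin at -13 and 4 bases from the second of its annotated starts, in Ctsd the copy begins at -99, in Mcoln1 at -46, and in Gla at -228 and -195. Of all 13 tested genes with CACGTG, 4 rose, 4 fell and 5 were not called (median log2 difference 0.03). Of the 25 tested genes searched without a match, 11 rose, 8 fell and 6 were not called (median 0.00). Over all genes tested, 30.3% rose and 35.0% fell, or 65.2% called. Whether genes with and without the hexamer differ was not tested. Ctsk, Ctsz, Lamp2 and Mitf were among those without a match in these windows, which says only that these letters are not there.

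The choice of probe set mattered for part of the group. The 43 genes had 92 probe sets, and 22 genes had several above the filter. In a fit over single probe sets, all probe sets above the filter passed in the same direction for 11 of these 22 genes. Among them were Ctsb, Ctsz, Ctsh, Gaa, Lamp2, Lipa, Scarb2 and Smpd1. In that fit 59.5% of all 22481 single probe sets passed, which is not a share of genes. The share of all genes whose probe sets agree was not computed. For 16 genes all probe sets had the same sign. The signs differed for Arsb, Fuca1, Galc, Gla, Ids and Psap, and Galc alone had probe sets that passed in opposite directions. Sizes also varied: the 4 probe sets of Ctsb above the filter had log2 differences between 0.64 and 1.77, and the 4 of Lamp2 between 0.80 and 1.20.

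**Figure D3:**
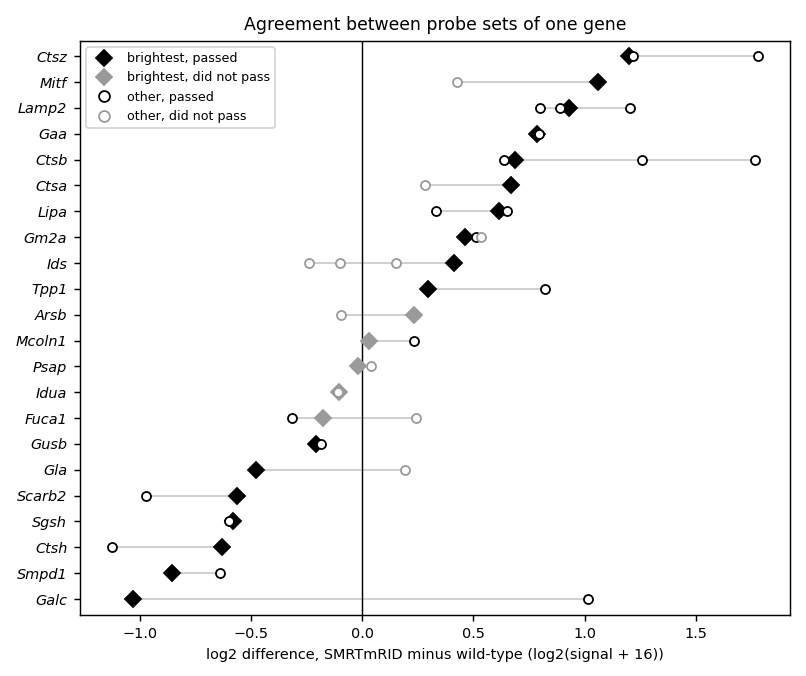
SMRTmRID minus wild-type log2 difference of every probe set above the filter for the 22 lysosomal genes with several. Diamonds are the brightest probe set, circles the others, and grey marks those that did not pass when adjusted over all 22481 probe sets. The symbols of Galc lie at -1.03 and 1.02 on opposite sides of 0, while all those of Lamp2 lie between 0.80 and 1.20.

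Other genes of lysosome formation, taken from further lists, were also split. Genes of all further lists are given by their brightest probe set, and their other probe sets were not checked. Of 13 further hydrolases and activators tested, 5 rose and 6 fell (median log2 difference -0.05), or 84.6% called, beside 65.2% of all genes tested. Dnase2a, the acid deoxyribonuclease gene, rose by 0.57, Ppt1, a palmitoyl-protein thioesterase gene, by 0.39 and Sumf1, whose product activates all sulfatases, by 0.30. The greatest falls were in Smpdl3a at -1.12, Hyal2, a hyaluronidase gene, at -1.02 and Ctse, an aspartic protease gene, at -0.92. Smpdl3a was dim, with signals of 25.0 and 15.1 in SMRTmRID, against 56.5 and 66.8 in wild-type. Hyal2 had signals of 147 and 126 in SMRTmRID, against 310.5 and 277 in wild-type. Of 15 other membrane and cholesterol transport proteins, 6 rose and 3 fell (median log2 difference 0.19), or 60% called. The endolysosomal channel genes Tpcn1 and Tpcn2 moved apart. Tpcn1 had signals of 398 and 456 in SMRTmRID, against 186 and 151 in wild-type (log2 difference 1.27), and Tpcn2 had signals of 56.5 and 32.4 in SMRTmRID, against 88.6 and 101 in wild-type (log2 difference -0.90). Slc38a9, a lysosomal amino acid sensor gene, and Slc17a5, the sialic acid exporter gene, rose by 0.61 and 0.44. Tmem192 and Npc2, a carrier of lysosomal cholesterol, had log2 differences of -0.56 and -0.22.

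The genes that tag and carry hydrolases were mixed as well. Among 11 tested, 5 rose, 3 fell and 3 were not called (median log2 difference -0.13). The 72.7% called compare with 65.2% of all genes tested. Gnptab, the phosphotransferase subunit that starts the mannose 6-phosphate tag, had signals of 557 and 593 in SMRTmRID, against 343 and 299.5 in wild-type, a log2 difference of 0.81. Both mannose 6-phosphate receptor genes rose, M6pr by 0.55 and Igf2r by 0.51, as did the sorting receptor gene Sort1 by 0.91 and the adaptor subunit gene Ap3b1 by 0.68. The genes that fell encode coat adaptors of the Golgi apparatus, namely Gga2 at -0.70, Ap1m1 at -0.67 and Gga1 at -0.56.

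Of 15 tested subunit genes of the vacuolar ATPase, the pump that acidifies the lysosome, 4 rose, 5 fell and 6 were not called (median log2 difference 0.01), so that 60% were called, beside 65.2% of all genes tested. Atp6v1a, the catalytic subunit gene, rose by 0.78, with signals of 1569.6 and 1542 in SMRTmRID, against 877 and 924 in wild-type, and the accessory gene Atp6ap2 by 0.69. Atp6v0a1 and Atp6v0d1, of the membrane sector, had log2 differences of -1.02 and -0.49, and Atp6v1b2 of -0.38. Atp6v0a1 had signals of 197 and 119 in SMRTmRID, against 319 and 339 in wild-type. Of the cathepsin inhibitors, Cst3, for the secreted cystatin C, had signals of 4207 and 4191 in SMRTmRID, against 2398 and 2497 in wild-type, a log2 difference of 0.78 ± 0.05 (SE). Cstb, the intracellular cystatin B gene, had a log2 difference of -0.06 that did not pass (adjusted p = 0.289 by limma), and Serpinb6a one of -0.26 that did.

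**Figure D4:**
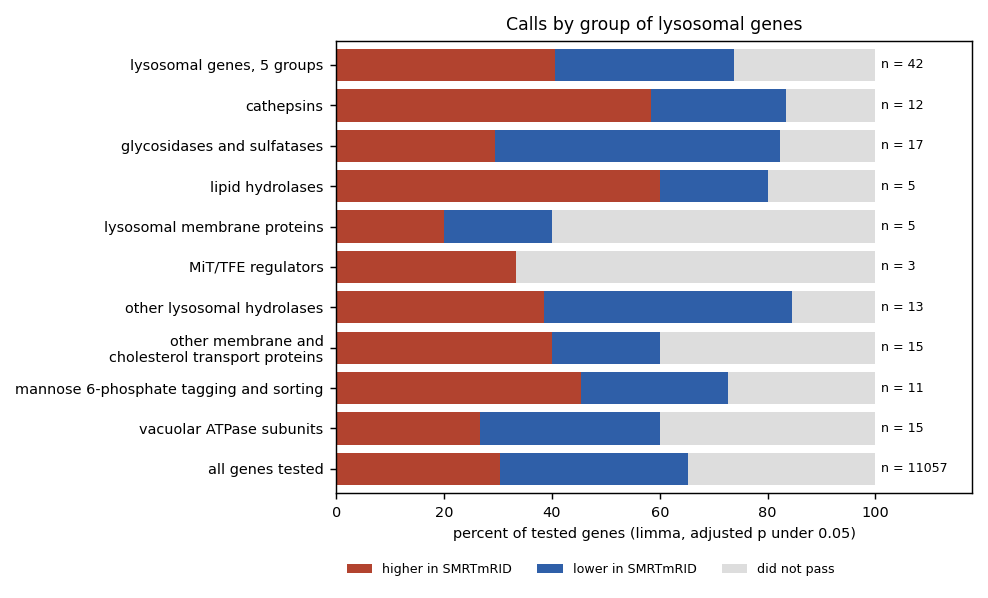
Percent of tested genes that were higher (red), lower (blue) or did not pass (grey) in SMRTmRID relative to wild-type, for the lysosomal genes, their 5 groups, 4 further lists and all 11057 genes tested. The cathepsin group, which includes Tpp1 and Lgmn, rose in 58.3% and fell in 25% of cases. Glycosidases and sulfatases rose in 29.4% and fell in 52.9%, and all genes rose in 30.3% and fell in 35.0%.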

How the data were processed

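Gene expression was measured on 4 arrays, 2 SMRTmRID and 2 wild-type, with genotype and replicate number taken from the titles. For every probe set the authors deposited a linear intensity on each array, which the submitters' processing notes call MAS5. After trimming 2% of probe sets at each end, the mean intensity was 200.0 on all arrays, so they had been scaled alike. The authors' scaling and background settings are not given in the sources used here, and 0 value columns were left unassigned.

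Of 45101 probe sets, 64 controls were left out. Of the others, 34945 had 1 gene symbol in the platform annotation, 932 had several and were not named, and 9160 had none here; symbols were updated through gene IDs with a table of GRCm38.p6 for 34741 probe sets. A gene was represented by its brightest probe set over all arrays. Genes with a mean signal above the median of all values, 35.1, were tested.

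Signals were taken as log2(signal + 16) and fitted with limma 3.58.1 under R 4.3.3 (eBayes with its trend option, 4 arrays, no covariates; adjusted p over 11057 genes, two-sided). The genes described and the lists were chosen with earlier results of these data known, so no list was tested as a set. Values on each array are given for called genes with a log2 difference of at least 1 in size, for MiT/TFE factors and, chosen after their values were seen, for further genes; of each other list at most 3 rises and 3 falls are named, with M6pr and Igf2r added after their values were seen. Alternatives covered normalization, pseudocount, filter, probe set, variance model, replicate block and leaving out each array. Same-numbered arrays were not paired: their deviations from the genotype means correlated at 0.012. Depth has no meaning for arrays, and their number limits the precision. Figures were drawn with matplotlib 3.10.9.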

Additional observations from a re-analysis of the deposited data

How the results depend on the processing

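Calls of the 42 lysosomal genes were recomputed under 14 alternatives in normalization, pseudocount, filter, probe set, variance model, replicate block and arrays used. The further lists, among them the mTORC1 and autophagy genes, the cell type markers and the E-box counts were not recomputed. Of the 31 called lysosomal genes, 18 kept direction and call under every alternative in which they were measured. The number higher, 17, ranged from 12 of 35 genes tested, with the second brightest probe set, to 19 of 42, and with 1 array left out from 15 to 16. The number lower, 14, ranged from 12 to 15 with 1 array left out, and was 9 with probe sets averaged and 9 of 35 with the second brightest probe set. With the mean of probe sets, Galc had a log2 difference of 0.12, Fuca1 of 0.028, Ids of -0.060 and Arsb of -0.053, all opposite in sign to the brightest probe set and none past the threshold. In the setting with the second brightest probe set, genes with a single probe set kept it, so their differences were unchanged. With the second brightest probe set, Galc was 1.02 and passed, whereas Gla at 0.19 and Arsb at -0.10 did not. Ctsa (0.28) and Mitf (0.43) kept their sign without passing. With median-centred arrays Arsa was -0.016. The cause of these changes was not tested. With the replicate number as a block, 17 genes were higher and 14 lower, and no call of a lysosomal gene changed; the labels state no pairing. The filter above the 75th percentile of signal left 33 of the 42 genes. With 2 technical replicates of each genotype and a lone array where 1 is left out, the spread is borrowed from the other genes and the other genotype.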

Other observations

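Genes of the complexes that sit on the lysosome and control mTORC1, the kinase that keeps TFEB and TFE3 out of the nucleus, went both ways. Of 16 tested, 3 were higher, 5 lower and 8 did not pass in SMRTmRID (limma, Benjamini-Hochberg adjusted p under 0.05), and the median log2 difference was -0.01. The 50% called compare with 65.2% of all genes tested, the 18.8% higher with 30.3% and the 31.2% lower with 35.0%. Fnip1, a partner of folliculin, had signals of 441 and 455 in SMRTmRID, against 195 and 179 in wild-type, differing by 1.19 ± 0.09 on the log2 scale (SE, limma adjusted p = 2.69e-06). Flcn, the folliculin gene, went the other way, with signals of 313 and 282 in SMRTmRID, against 426 and 419 in wild-type, a log2 difference of -0.49. The Ragulator subunit genes Lamtor1 and Lamtor5 fell by 0.65 and 0.55 on the log2 scale, while the small GTPase genes Rraga and Rheb rose by 0.29 and 0.27.

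Autophagy genes were even in direction. Of 20 tested, 5 were higher, 5 lower and 10 were not called (median log2 difference -0.07), or 50% called, beside 65.2% of all genes tested. Atg12, the ubiquitin-like conjugation gene, had signals of 578 and 586 in SMRTmRID, against 235 and 268 in wild-type, a log2 difference of 1.16. Wipi1, which binds the lipid of nascent autophagosomes, had signals of 1563 and 1328 in SMRTmRID, against 667 and 632 in wild-type, a log2 difference of 1.13. Map1lc3a rose by 0.34. Uvrag, Atg4b and the cargo receptor gene Sqstm1 had log2 differences of -0.90, -0.65 and -0.54.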
